A study of Mus musculus with 18 samples.

Results

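The genes described here are 9 of the 21967 genes in a table of read counts from mouse erythroid progenitors, chosen by symbol and read in the order in which their products act. Alas2, Alad, Uros, Urod, Cpox, Ppox and Fech encode enzymes of haem synthesis, and Abcb6 and Abcb10 encode transporters of the mitochondrial membranes. All 9 were found in the table, and 8 of them had counts in all 18 libraries, while Alas2 had counts in 14.

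Haem synthesis starts in the mitochondrion, where an ALAS enzyme joins glycine to succinyl-CoA, passes through the cytosol, and returns to the mitochondrion, where ferrochelatase places iron in protoporphyrin. ALAS2 is the erythroid form of the entry enzyme, and ALAS1 is the form used in other tissues. Red cell precursors make haem in bulk for haemoglobin, and the transcription factor GATA1 is known to drive many genes of the route.

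The libraries came from total RNA of CFU-E and of the PreCFU-E that precede them in the red cell lineage, both sorted from bone marrow cells carrying the receptor KIT, 5000 to 10000 cells each. The mice carried 3 genotypes at Scf, the gene of the KIT ligand (stem cell factor): KO/FL;Lepr-Cre, with a null copy, a floxed copy and Cre (here Lepr-Cre mice), KO/FL, with a null copy and a floxed copy, and FL/FL, with floxed copies alone. The leptin receptor promoter directs this Cre to stromal cells of the marrow, so the sorted progenitors are not the cells in which Cre acts, and cells without leptin receptor keep the floxed copy. Each of 9 mice, 3 per genotype with the letters A, B and C, gave a library of both cell types, which makes 6 groups of 3 libraries. Mice B were female and mice A and C male in every genotype, and the labels give no ages. Lepr-Cre mice differ from KO/FL mice by Cre, and from FL/FL mice by Cre and the null copy, and no group carried Cre with an intact Scf gene.

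Library totals ran between 3541066 counts, in PreCFU-E of KO/FL mouse A, and 9389122. Levels are CPM, that is, counts relative to the library total after TMM scaling (a correction for composition), and each interval or floor takes in only the error of counting. A sample number in the labels that a CFU-E and a PreCFU-E library share was taken as the mouse. The p-values rest on the spread between mice within groups, estimated jointly over all groups of a fit and not for each group alone. Fits with the mouse as a block rest instead on the spread of the difference between the cell types of a mouse. The labelled cell types were checked on marker genes. Gata1 lay at 174 to 302 CPM and Klf1 at 228 to 345 CPM in all 18 libraries. Slamf1, which encodes the sorting antigen CD150, was at 0 to 1.17 CPM in CFU-E and at 0.930 to 13.01 CPM in PreCFU-E. Summed markers of neutrophils and monocytes, mast cells and basophils, macrophages, T cells and stroma each stayed at or below 5.05 CPM in every library. Megakaryocyte markers (Itga2b, Pf4, Gp1bb, Gp9 and Vwf) summed to 24.1 to 52.9 CPM, with 4 of 5 detected in each group (Pf4 at 0 in PreCFU-E of Lepr-Cre mice and Gp1bb at 0 in the other groups), and their part in the results was not tested. CFU-E of Lepr-Cre mouse B had the fewest genes detected, 10782 against 11382 to 13536 in the other libraries.

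The promoters are shown because the erythroid factors GATA1 and KLF1 act through short motifs, and these members differ in which of those motifs they hold. RefSeq windows on GRCm38.p6, from 250 bases before to 50 after a transcript start, were matched by symbol for 8 members, with 10 windows, since Alad and Uros had a pair of windows each. Both strands were searched for the GATA motif in its form AGATAA and in its other common form, spelled TGATAA. They were also searched for the box bound by KLF1, spelled CCACCC and called CACCC box here. The NF-E2 motif was searched as the letters TGANTCA, and the E-box, to which TAL1 and many other factors bind, as the letters CANNTG. The stretches printed here are the 150 bases before the start, read 5′ to 3′ on the gene's strand, and capitals mark GATA motifs and CACCC boxes. Both stand here on the opposite strand, so that the GATA motif reads TTATCT in Alas2 but TTATCA in the other genes, and a CACCC box reads GGGTGG.
Alas2 (chrX:150547267-150547416, plus strand): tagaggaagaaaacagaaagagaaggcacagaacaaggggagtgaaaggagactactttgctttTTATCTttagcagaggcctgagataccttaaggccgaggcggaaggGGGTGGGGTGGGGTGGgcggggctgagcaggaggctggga
Uros, the downstream of its 2 windows (chr7:133702501-133702650, minus strand): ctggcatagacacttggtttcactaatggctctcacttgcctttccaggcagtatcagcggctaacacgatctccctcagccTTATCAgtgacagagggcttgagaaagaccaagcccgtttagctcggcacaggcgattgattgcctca
Cpox (chr16:58670058-58670207, plus strand): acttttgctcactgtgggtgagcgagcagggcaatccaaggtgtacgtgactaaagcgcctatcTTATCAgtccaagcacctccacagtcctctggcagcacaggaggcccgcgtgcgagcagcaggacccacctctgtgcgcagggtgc
Urod (chr4:116994414-116994563, minus strand): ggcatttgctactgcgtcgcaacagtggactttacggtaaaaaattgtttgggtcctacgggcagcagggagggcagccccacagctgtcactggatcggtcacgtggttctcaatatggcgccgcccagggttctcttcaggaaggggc

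A GATA motif lay in the windows of 3 members: 86 to 81 bases before the start in Alas2 and in Cpox, and 68 to 63 bases before the downstream start of Uros, a gene known to have an erythroid promoter within its transcription unit. The RefSeq start used for Cpox, at 58670208, lies upstream of its GENCODE start at 58670292, so the Cpox distance depends on the start taken. For Alas2 the RefSeq start, at 150547417, lies downstream of the GENCODE start at 150547375, so its distances depend on the start too. A GATA motif lay in 3 of the 10 windows of members, beside 16.6% of 32851 windows of the same length. Alas2 also held 3 CACCC boxes that overlap each other by a base, at 40 to 25 bases before its RefSeq start. These boxes lie within the gene as GENCODE places it. Abcb6 held 2 farther upstream. At least 1 such box was in 2 of the 10 windows of members, beside 28.1% of all windows. The window of Urod, printed for contrast, held neither motif. E-boxes were in 6 of the 10 windows, from 4 members (Alad, Uros, Urod and Abcb6), beside 66.2% of all windows. No member's window held an NF-E2 motif, found in 6.7% of all windows. The windows of Ppox and Abcb10 held none of the motifs searched, and Fech had no matched window. These matches describe letters in a window and are not binding data.

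CFU-E were compared with PreCFU-E, here called the step, in each genotype with edgeR's quasi-likelihood test on all 18 libraries, with Benjamini-Hochberg adjustment over 10732 genes and a threshold of 0.05. Transcripts of 8 members were higher in CFU-E in each genotype, and Alad was the exception. In Lepr-Cre mice that count was 6 or 7 without any 1 of their libraries, and 3 in male mice alone, where Alas2, Urod, Cpox, Ppox and Abcb6 lost the call (edgeR adjusted p between 0.0613 and 0.310). Over all genes, 778 were called in either direction in that step, 473 to 789 without 1 library and 305 in male mice alone. Male mice alone gave 7 members in KO/FL and 6 in FL/FL mice, among 800 and 889 genes, against 1510 and 1963 with all mice. As a background, 3.0% of all tested genes were called higher in CFU-E of Lepr-Cre mice, 6.89% in CFU-E of KO/FL mice and 8.99% in CFU-E of FL/FL mice. The median log2 fold change of the 9 members was 0.72 in Lepr-Cre, 0.997 in KO/FL and 1.26 in FL/FL mice, beside medians of -0.01, 0.00 and 0.01 over all tested genes. Groups were apart, with all CFU-E libraries above all PreCFU-E libraries, for 9 members in Lepr-Cre mice (10.7% of all genes), 8 in KO/FL mice (15.3%) and 8 in FL/FL mice (16.9%). Each member had more CPM in CFU-E than in PreCFU-E of the same animal in 9 of 9 mice. A library pools many sorted cells, so a larger share of cells with a transcript and more of it per cell cannot be told apart. With the mouse as a block, since a mouse gave both cell types, edgeR called 9 of 9 members higher in each genotype, beside 5.45%, 10.3% and 13.2% of all genes in Lepr-Cre, KO/FL and FL/FL mice.

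**Figure D1:**
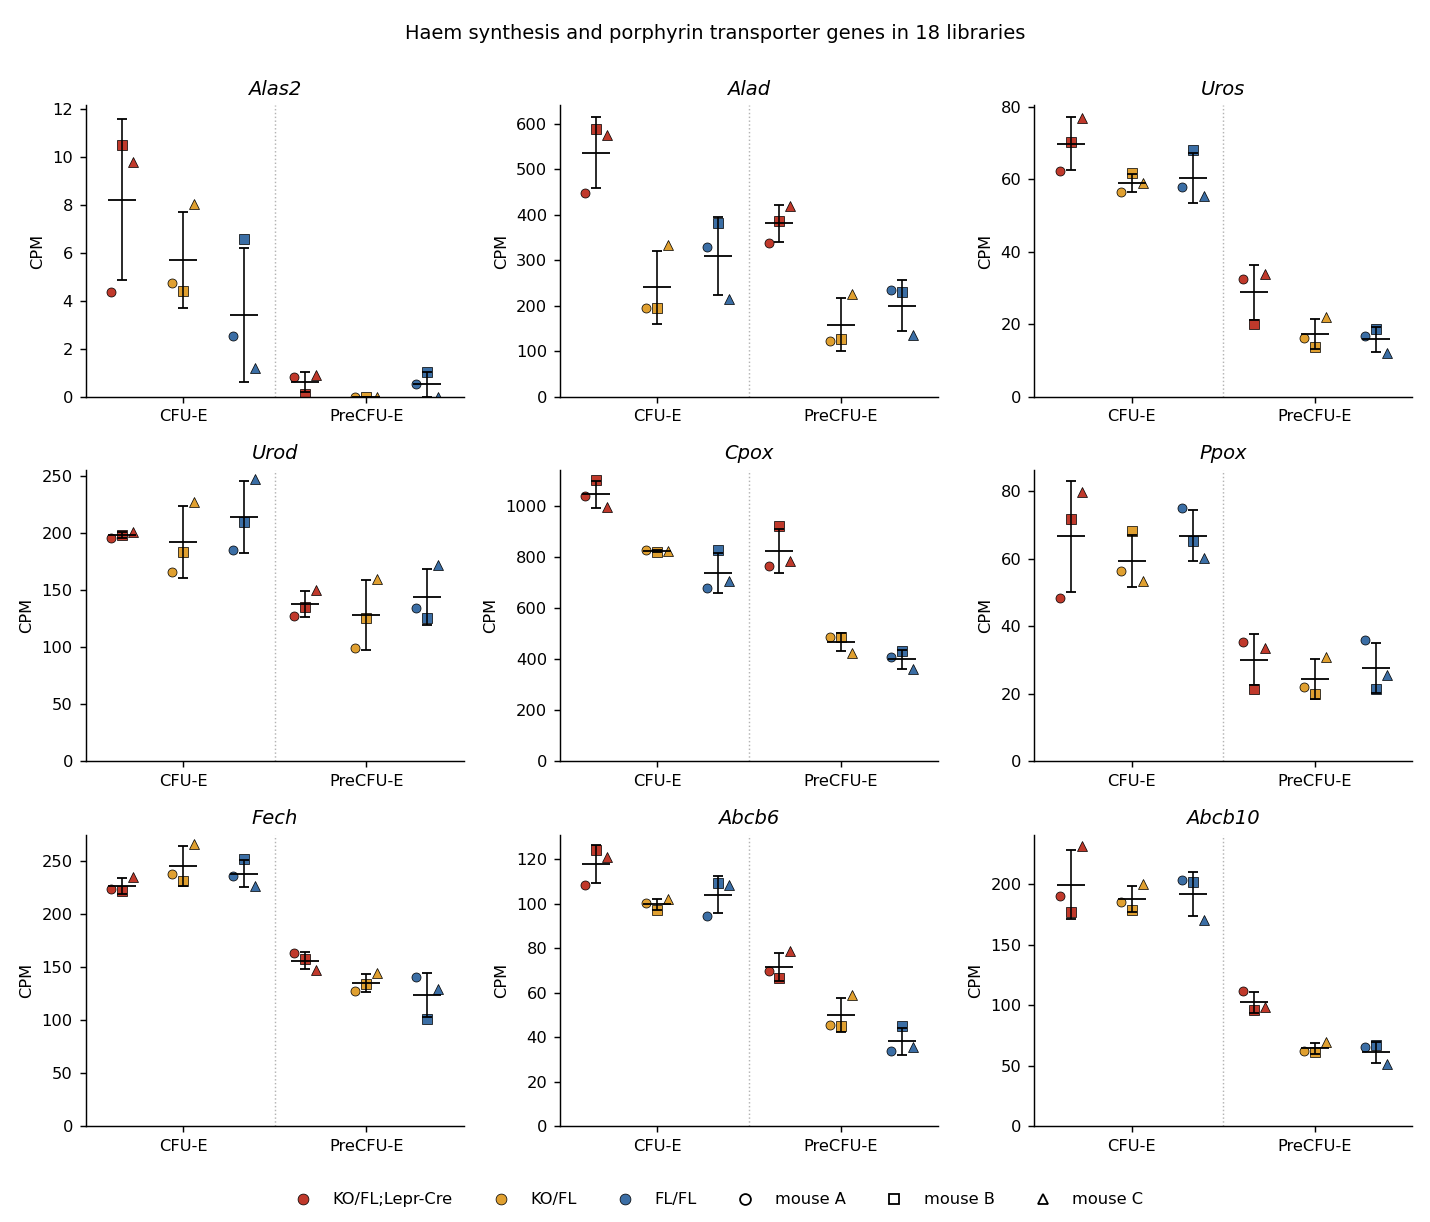
CPM (linear axes from 0) of the 9 genes in each of 18 libraries, with CFU-E left and PreCFU-E right of the dotted line and genotypes by colour. Symbols stand for mice A, B and C, horizontal bars for the mean and error bars for the SD of 3 libraries, cut off at 0. Alas2 reaches 10.5 CPM while Cpox reaches 1104 CPM, and CFU-E libraries lie above PreCFU-E libraries in most panels.

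Alas2 (ENSMUSG00000025270.13, chrX:150547375-150570638, plus strand, GRCm38 with GENCODE M21, the source of all gene positions given here but not of the promoter windows) encodes the erythroid entry enzyme. In CFU-E it had 4.37, 10.5 and 9.79 CPM in Lepr-Cre mice A, B and C, against 0.822, 0.112 and 0.899 CPM in their PreCFU-E. KO/FL mice gave 4.74, 4.41 and 8.03 CPM in CFU-E and 0 counts in all 3 PreCFU-E libraries. FL/FL mice gave 2.52, 6.57 and 1.18 CPM in CFU-E, against 0.517, 1.04 and 0 CPM in PreCFU-E. Every CFU-E library of a genotype lay above every PreCFU-E library of it, and the CFU-E levels themselves spread widely between mice. The log2 fold change was 3.74 (SE 0.92, edgeR adjusted p = 0.00977) in Lepr-Cre mice and 2.71 (SE 0.92, edgeR adjusted p = 0.0382) in FL/FL mice. In KO/FL mice, with 137 counts over the CFU-E libraries and 0 over the PreCFU-E libraries, Alas2 was at least 32.6-fold higher in CFU-E, taking 0 as a floor of 3 counts over the group (edgeR adjusted p = 0.000240). These calls rest on few counts. Without PreCFU-E of Lepr-Cre mouse B the Lepr-Cre step had an edgeR adjusted p of 0.0538. For FL/FL mice the edgeR adjusted p was 0.0953 without PreCFU-E of mouse A, 0.124 without PreCFU-E of mouse C and 0.282 without CFU-E of mouse B. Of the exon bases of Alas2, 15.5% also belong to genes on the opposite strand (Apex2 and Mir3620), and no label says whether the counting used strand.

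The share of Alas2 among the reads of both entry enzymes describes which form is present, with Alas1 as the other form. Over the 3 libraries of a group, Alas2 made up 19.04% of Alas1 and Alas2 counts in CFU-E of Lepr-Cre mice (exact Clopper-Pearson 95% interval 16.5% to 21.7%) and 1.77% (0.970% to 2.95%) in their PreCFU-E. In KO/FL mice it was 14.9% (12.6% to 17.3%) in CFU-E and 0% in PreCFU-E, where 0 of 673 counts allow a share of up to 0.446% (taken as 3 counts of the total, not as a Clopper-Pearson bound). In FL/FL mice it was 8.92% (7.14% to 10.98%) in CFU-E and 1.10% (0.572% to 1.92%) in PreCFU-E. These intervals cover counting error alone, and the mice of a group differed by more. The CFU-E shares were 10.2%, 25% and 24.7% in Lepr-Cre mice A, B and C, 11.9%, 10.8% and 26.9% in KO/FL mice and 7.04%, 17.5% and 2.65% in FL/FL mice, so the genotypes overlapped. The FL/FL share in CFU-E was 4.16% without mouse B and 13.5% without mouse C, and in PreCFU-E it was 0.660% without mouse B and 1.66% without mouse C. The Lepr-Cre share in PreCFU-E was 2.67% without mouse B. Alas1 itself had 21.8 to 43.3 CPM in CFU-E and 29.3 to 50.2 CPM in PreCFU-E, and it passed the threshold for a step in none of the 3 genotypes (log2 fold change 0.05 in Lepr-Cre, -0.30 in KO/FL and -0.36 in FL/FL mice, edgeR adjusted p = 0.938, 0.365 and 0.227). Alas1 counts exceeded Alas2 counts in every group, in cells whose later progeny are known to depend on ALAS2. Per kilobase of exon Alas2 averaged 3.42 CPM in CFU-E of Lepr-Cre mice, against 5.39 CPM per kilobase for Alas1 in the same libraries.

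The cytosolic enzymes follow. Uros (ENSMUSG00000030979.13, chr7:133686243-133710072, minus strand) encodes uroporphyrinogen III synthase, which closes the porphyrin ring, and it had the largest called step after Alas2. Lepr-Cre mice A, B and C gave 62.4, 70.3 and 77.0 CPM in CFU-E, against 32.5, 20.2 and 34.0 CPM in PreCFU-E. KO/FL mice gave 56.6, 61.7 and 58.9 CPM in CFU-E, against 16.3, 13.8 and 21.97 CPM in PreCFU-E. The FL/FL mice gave 57.9, 68.3 and 55.3 CPM in CFU-E, against 16.6, 18.8 and 12.01 CPM in PreCFU-E. No CFU-E library overlapped a PreCFU-E library, and in CFU-E the Lepr-Cre libraries overlapped those of FL/FL mice but lay just above those of KO/FL mice. Log2 fold changes were 1.28 (SE 0.21, edgeR adjusted p = 0.000120) in Lepr-Cre, 1.76 (SE 0.22, 5.26e-07) in KO/FL and 1.94 (SE 0.21, 6.07e-08) in FL/FL mice. Gene counts do not say which of the 2 Uros starts the reads came from.

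Urod (ENSMUSG00000028684.14, chr4:116989965-116994413, minus strand) encodes the decarboxylase that follows, and its step was small and even. CFU-E libraries had 195 to 201 CPM in Lepr-Cre, 166 to 227 CPM in KO/FL and 185 to 247 CPM in FL/FL mice. PreCFU-E libraries had 128 to 149.7 CPM in Lepr-Cre, 98.9 to 159.9 CPM in KO/FL and 125 to 172 CPM in FL/FL mice. Groups did not overlap in any genotype, with log2 fold changes of 0.53 (SE 0.15, edgeR adjusted p = 0.0281), 0.58 (SE 0.15, 0.00826) and 0.57 (SE 0.15, 0.00674) in Lepr-Cre, KO/FL and FL/FL mice. The Lepr-Cre call was lost without any of 5 libraries, that is, each of its CFU-E libraries and PreCFU-E of mice A and B (adjusted p between 0.0647 and 0.147). The KO/FL call was lost without PreCFU-E of mouse A (0.0723) or B (0.0521) or CFU-E of mouse C (0.0883), and the FL/FL call without PreCFU-E of mouse B (0.0621) or CFU-E of mouse C (0.0623).

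Alad (ENSMUSG00000028393.10, chr4:62509169-62519918, minus strand) encodes aminolaevulinate dehydratase, which joins pairs of aminolaevulinate into porphobilinogen, and it varied widely between the mice of a group. CFU-E of Lepr-Cre mice A, B and C had 447, 588 and 576 CPM, against 339, 387 and 419 CPM in their PreCFU-E. CFU-E of KO/FL mice had 194, 195 and 334 CPM, against 123, 127 and 226 CPM in PreCFU-E. CFU-E of FL/FL mice had 329.9, 382 and 215 CPM, against 234, 231 and 136 CPM in PreCFU-E. A mouse that was high in one cell type was high in the other: KO/FL mouse C stood above A and B in both, and FL/FL mouse C stood below A and B in both. All 9 mice lay on the same side of their group mean in both cell types, which held for 2.22% of the 10732 tested genes. Within groups the SD of log2 CPM was 0.39, while the SD of the difference between the cell types of a mouse was 0.10, with differences between 0.40 and 0.73 in the 9 mice. That second SD was 0.174 of the value that independent libraries would give, a ratio as low or lower in 0.0839% of tested genes, whose median was 0.901.

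Whether the Alad step was called depended on the fit. In the 18-library fit without a block the log2 fold change was 0.49 (SE 0.31, edgeR adjusted p = 0.429) in Lepr-Cre, 0.60 (SE 0.32, 0.263) in KO/FL and 0.63 (SE 0.31, 0.204) in FL/FL mice. With the mouse as a block it was 0.49 (SE 0.08, edgeR adjusted p = 1.37e-05), 0.61 (SE 0.09, 1.43e-07) and 0.63 (SE 0.08, 3.56e-08). The 18-library fit shares its spread between the genotypes, whereas a fit of the 6 libraries of a genotype takes it from that genotype alone. With no pairing, that smaller fit also called Alad in Lepr-Cre mice (0.49, SE 0.12, edgeR adjusted p = 0.0149) but not in KO/FL or FL/FL mice. Urod came closest to this pattern among the other members, with 8 of 9 mice on the same side and SDs of 0.22 within groups and 0.13 for the difference within a mouse. In Fech 3 of 9 mice lay on the same side, and the median over tested genes was 5.

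**Figure D2:**
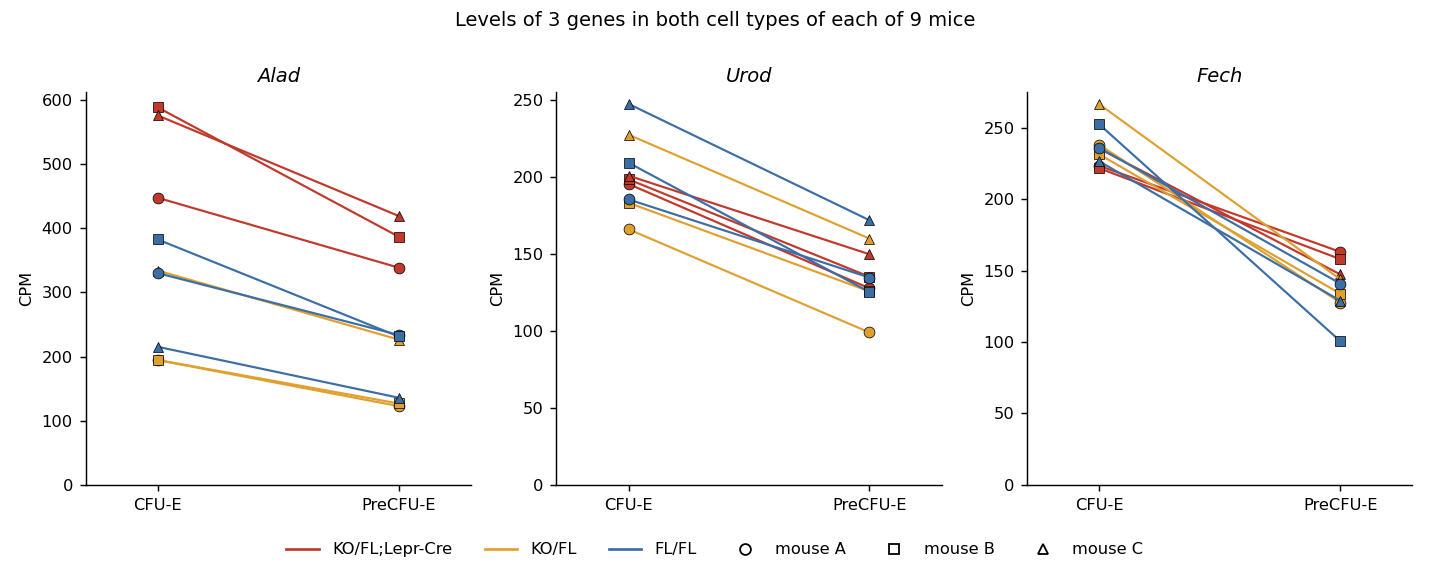
CPM (linear axes from 0) of Alad, Urod and Fech in CFU-E (left) and PreCFU-E (right), with a line joining the libraries of each of 9 mice. Alad lines run nearly parallel, with KO/FL mouse C above and FL/FL mouse C below the other mice of their genotypes in both cell types, while Fech lines cross.

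Of the mitochondrial enzymes, Cpox (ENSMUSG00000022742.6, chr16:58670292-58717636, plus strand) encodes coproporphyrinogen oxidase and had the most counts of the 9 members, 36.5% to 51.1% of their summed CPM. Lepr-Cre mice A, B and C gave 1039, 1104 and 996 CPM in CFU-E, against 766, 923 and 783 CPM in PreCFU-E. In KO/FL mice there were 829, 819 and 826 CPM in CFU-E, against 486, 488 and 426 CPM in PreCFU-E. The FL/FL mice had 681, 828 and 705 CPM in CFU-E, against 408, 434 and 361 CPM in PreCFU-E. The groups were apart in each genotype, and PreCFU-E of Lepr-Cre mice already reached the range of CFU-E of FL/FL mice. Log2 fold changes were 0.34 (SE 0.10, edgeR adjusted p = 0.0357) in Lepr-Cre, 0.82 (SE 0.10, 8.86e-07) in KO/FL and 0.88 (SE 0.10, 1.73e-07) in FL/FL mice. The Lepr-Cre call was lost without any of 5 libraries, that is, each of its CFU-E libraries and PreCFU-E of mice A and C (adjusted p between 0.0609 and 0.183).

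Ppox (ENSMUSG00000062729.11, chr1:171275990-171281186, minus strand), which encodes protoporphyrinogen oxidase, had 48.3 to 79.9 CPM in CFU-E of Lepr-Cre, 53.5 to 68.1 CPM in KO/FL and 60.2 to 75.1 CPM in FL/FL mice. Its PreCFU-E libraries had 21.5 to 35.3 CPM in Lepr-Cre, 19.8 to 31.0 CPM in KO/FL and 21.4 to 35.9 CPM in FL/FL mice. The groups did not overlap, and the step was of similar size in each genotype, with log2 fold changes of 1.15 (SE 0.22, edgeR adjusted p = 0.00107), 1.28 (SE 0.23, 0.000141) and 1.26 (SE 0.22, 0.000102). Of its exon bases, 17.5% also belong to B4galt3 on the opposite strand.

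Fech (ENSMUSG00000024588.9, chr18:64452914-64490251, minus strand) encodes ferrochelatase, which ends the route. CFU-E libraries had 222 to 235 CPM in Lepr-Cre, 231 to 267 CPM in KO/FL and 227 to 252 CPM in FL/FL mice. PreCFU-E libraries had 147 to 163 CPM in Lepr-Cre, 128 to 144 CPM in KO/FL and 101 to 141 CPM in FL/FL mice. No library overlapped between the cell types, and log2 fold changes were 0.54 (SE 0.11, edgeR adjusted p = 0.00166), 0.86 (SE 0.11, 1.32e-06) and 0.95 (SE 0.11, 1.65e-07) in Lepr-Cre, KO/FL and FL/FL mice.

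The transporters had large steps. Abcb10 (ENSMUSG00000031974.8, chr8:123952459-123983122, minus strand) encodes a carrier of the inner mitochondrial membrane that is induced in erythroid maturation. Lepr-Cre mice A, B and C had 189.8, 177 and 232 CPM in CFU-E, against 112, 95.8 and 98.6 CPM in PreCFU-E. In KO/FL mice there were 185, 179 and 199.7 CPM in CFU-E, against 62.2, 61.0 and 69.6 CPM in PreCFU-E. The FL/FL mice gave 203, 202 and 171 CPM in CFU-E, against 65.2, 66.8 and 50.9 CPM in PreCFU-E. CFU-E libraries of all 9 mice lay in a common range well above PreCFU-E, while PreCFU-E of Lepr-Cre mice lay above PreCFU-E of the others. Log2 fold changes were 0.97 (SE 0.12, edgeR adjusted p = 5.74e-06) in Lepr-Cre, 1.55 (SE 0.13, 6.88e-10) in KO/FL and 1.65 (SE 0.13, 8.71e-11) in FL/FL mice. Of its exon bases, 10.3% also belong to Gm45890 on the opposite strand.

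Abcb6 (ENSMUSG00000026198.15, chr1:75171717-75180392, minus strand) encodes a transporter linked to porphyrin uptake by mitochondria and also known from other membranes. Lepr-Cre mice A, B and C had 108, 124 and 121 CPM in CFU-E, against 69.7, 66.6 and 78.7 CPM in PreCFU-E. In KO/FL mice there were 100.2, 97.2 and 102 CPM in CFU-E, against 45.6, 45.2 and 58.8 CPM in PreCFU-E. The FL/FL mice gave 94.4, 109 and 108 CPM in CFU-E, against 33.8, 44.8 and 35.6 CPM in PreCFU-E. The cell types did not overlap in any genotype, and the 3 genotypes lay closer together in CFU-E than in PreCFU-E. Log2 fold changes were 0.72 (SE 0.14, edgeR adjusted p = 0.000979) in Lepr-Cre, 0.997 (SE 0.14, 5.83e-06) in KO/FL and 1.45 (SE 0.14, 6.90e-09) in FL/FL mice. The annotation places 55.2% of its exon bases also in Gm29253 on the same strand, a model that has no entry in the count table.

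**Figure D3:**
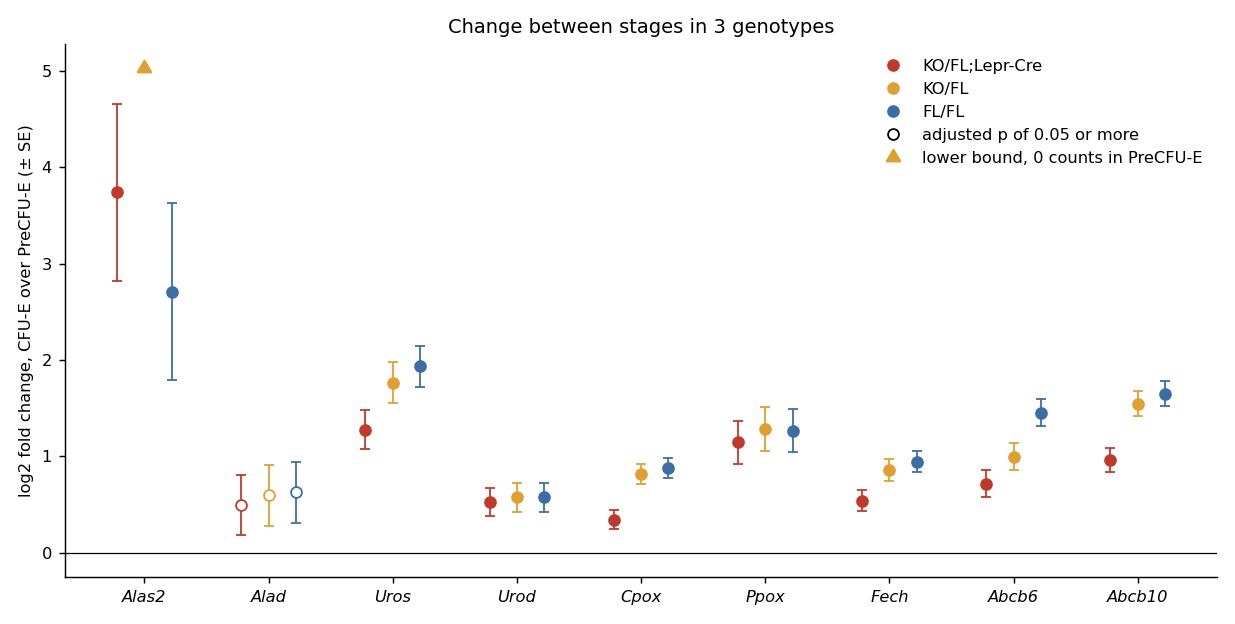
Log2 fold change of CFU-E over PreCFU-E (± SE from edgeR, 3 libraries per group) for the 9 genes in pathway order, by genotype. Filled circles passed the threshold, open circles did not, and the triangle is the lower bound for Alas2 in KO/FL mice. Lepr-Cre values are the lowest of the 3 genotypes for every gene but Alas2, and Alad alone has open circles.

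Cell type markers also differed between CFU-E and PreCFU-E. Of early progenitor markers, Gata2, Kit, Cd34, Slamf1 and Flt3 summed to 225 to 331 CPM in CFU-E, against 442 to 574 CPM in PreCFU-E, of Lepr-Cre mice, with 4 of 5 detected in each (Cd34 at 0). In KO/FL mice they summed to 355 to 483.5 CPM in CFU-E (Flt3 at 0), against 782 to 976 CPM in PreCFU-E, and in FL/FL mice to 395 to 509.5 CPM in CFU-E (Cd34 and Flt3 at 0), against 937 to 1033 CPM in PreCFU-E. Gata2, a factor of early progenitors, had 8.41 to 31.5 CPM in CFU-E, against 47.7 to 71.2 CPM in PreCFU-E, of Lepr-Cre mice, 29.5 to 33.6 CPM against 126 to 144 CPM in KO/FL mice, and 32.5 to 37.4 CPM against 169 to 193 CPM in FL/FL mice. Kit, which encodes the receptor of stem cell factor, had 211 to 299.5 CPM in CFU-E, against 380.0 to 489.5 CPM in PreCFU-E, of Lepr-Cre mice, 321 to 449 CPM against 648 to 824 CPM in KO/FL mice, and 363 to 472 CPM against 736 to 847 CPM in FL/FL mice. Late erythroblast markers, a list of 6 with Alas2 itself, summed to 146 to 209 CPM in CFU-E and 79.2 to 121 CPM in PreCFU-E. These ranges are over the 3 genotypes. In PreCFU-E, Alas2 and Hbb-bs were at 0 in KO/FL mice, and Slc4a1 and Hbb-bs in FL/FL mice. The part of these cell type differences in the members' steps was not tested.

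**Figure D4:**
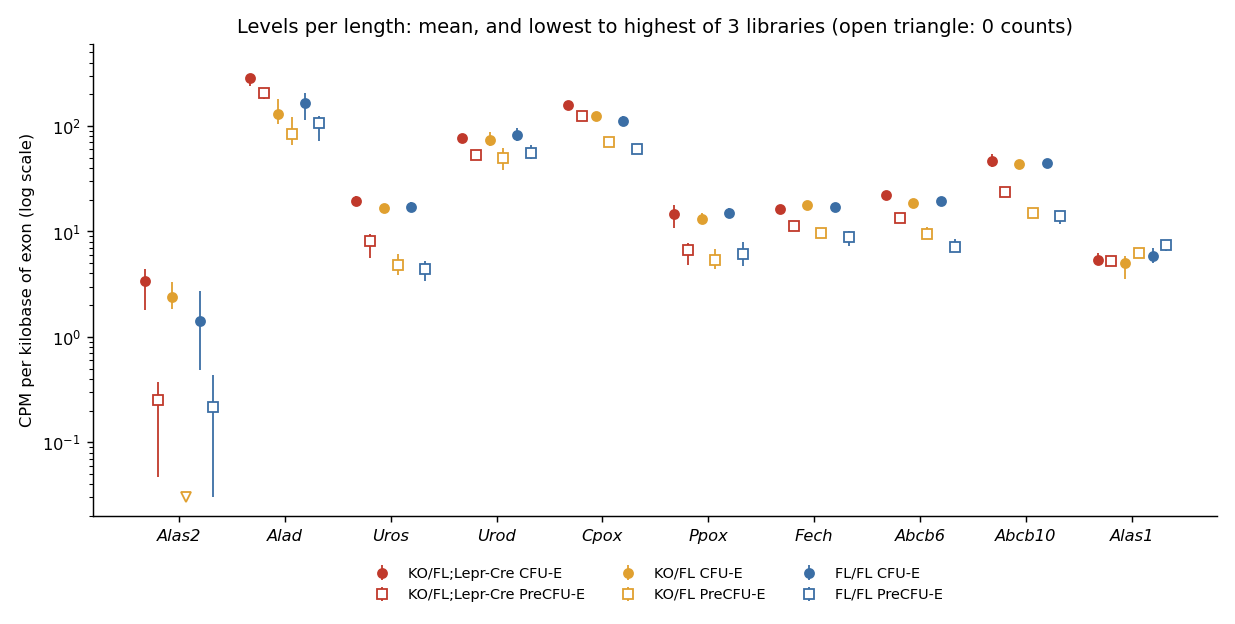
Mean CPM per kilobase of merged exon (log axis) of the 9 genes and Alas1 in 6 groups, with lines from the lowest to the highest of 3 libraries. The open triangle marks Alas2 at 0 counts in PreCFU-E of KO/FL mice, and the lower line of Alas2 in PreCFU-E of FL/FL mice ends at a library with 0 counts. Alad, Cpox and Urod are the 3 highest in each group, and Alas2 the lowest.

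Levels of different genes were set side by side per kilobase of merged GENCODE exon. Alad, Cpox, Urod and Abcb10 took places 1 to 4 in each of the 6 groups and Alas2 took the last. In CFU-E of Lepr-Cre mice the means were 287 CPM per kilobase for Alad, 157 for Cpox, 76.5 for Urod, 46.3 for Abcb10, 22.2 for Abcb6, 19.5 for Uros, 16.4 for Fech, 14.8 for Ppox and 3.42 for Alas2. In PreCFU-E of the same mice they were 204 for Alad, 124 for Cpox, 53.1 for Urod, 23.7 for Abcb10, 13.5 for Abcb6, 11.3 for Fech, 8.08 for Uros, 6.67 for Ppox and 0.254 for Alas2. Neighbours in the order overlapped in these mice only lower down (Abcb6 with Uros and Fech with Ppox in CFU-E, Uros with Ppox in PreCFU-E), while Alas2 was apart from the gene above it in every group. For FL/FL mice the CFU-E means were 165 for Alad, 111 for Cpox, 82.6 for Urod and 1.42 for Alas2, against 107, 60.2, 55.5 and 0.215 CPM per kilobase in PreCFU-E. Alad and Cpox overlapped in both cell types of KO/FL mice and in CFU-E of FL/FL mice, as did Cpox and Urod in PreCFU-E of FL/FL mice. Per kilobase of the longest coding transcript, a length tried after seeing the data, Cpox stood above Alad in both cell types of KO/FL mice, and Abcb10 took place 6 in PreCFU-E of all genotypes.

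The genotypes were then compared within PreCFU-E, where 8 members passed the filter on low counts and Alas2, at 0 to 1.04 CPM, did not. Cpox, Abcb6 and Abcb10 were higher in Lepr-Cre than in FL/FL mice, and Cpox and Abcb10 were higher in Lepr-Cre than in KO/FL mice. These 2 contrasts share the Lepr-Cre libraries. Against FL/FL mice, 3 of 8 members were called higher, beside 2.89% of 10309 tested genes called higher. The median log2 fold change was 0.81 for the 8 members and 0.00 for all tested genes, and 6 members did not overlap between the groups, beside 12.5% of all genes. Against KO/FL mice, 2 of 8 members were called higher, beside 1.02% of all genes called higher. The median was 0.59 for the members and 0.00 for all genes, and 5 members did not overlap, beside 9.4% of all genes.

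Cpox had 766, 923 and 783 CPM in PreCFU-E of Lepr-Cre mice, against 486, 488 and 426 CPM in KO/FL mice and 408, 434 and 361 CPM in FL/FL mice. All 3 Lepr-Cre libraries lay above all 6 others. The log2 fold change was 1.05 (SE 0.11, edgeR adjusted p = 2.86e-06) against FL/FL and 0.82 (SE 0.11, edgeR adjusted p = 0.000149) against KO/FL mice. Abcb10 had 112, 95.8 and 98.6 CPM in Lepr-Cre mice, against 62.2, 61.0 and 69.6 CPM in KO/FL and 65.2, 66.8 and 50.9 CPM in FL/FL mice. Here too the Lepr-Cre libraries stood apart, with 0.75 (SE 0.14, edgeR adjusted p = 0.00224) against FL/FL and 0.67 (SE 0.15, edgeR adjusted p = 0.0125) against KO/FL mice. The Abcb10 call against KO/FL mice was lost without PreCFU-E of KO/FL mouse B (edgeR adjusted p = 0.0763) or of Lepr-Cre mouse A (edgeR adjusted p = 0.0768).

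Abcb6 had 69.7, 66.6 and 78.7 CPM in PreCFU-E of Lepr-Cre mice, against 45.6, 45.2 and 58.8 CPM in KO/FL and 33.8, 44.8 and 35.6 CPM in FL/FL mice. The 3 genotypes did not overlap, and KO/FL mice lay between the others. The log2 fold change was 0.92 (SE 0.17, edgeR adjusted p = 0.00154) against FL/FL mice and 0.52 (SE 0.17, edgeR adjusted p = 0.131) against KO/FL mice. KO/FL against FL/FL gave 0.40 (SE 0.17, edgeR adjusted p = 1.0).

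Alad showed the largest difference against KO/FL mice without passing the threshold. It had 339, 387 and 419 CPM in PreCFU-E of Lepr-Cre mice, against 123, 127 and 226 CPM in KO/FL and 234, 231 and 136 CPM in FL/FL mice. No Lepr-Cre library overlapped the others, but the spread between mice within KO/FL and FL/FL was wide, and the log2 fold change was 1.26 (SE 0.30, edgeR adjusted p = 0.107) against KO/FL and 0.93 (SE 0.30, edgeR adjusted p = 0.132) against FL/FL mice. Without KO/FL mouse C the value against KO/FL mice was 1.61 with an edgeR adjusted p of 0.00128, and DESeq2 gave adjusted p of 0.00530 against KO/FL and 0.0468 against FL/FL mice. Uros had 32.5, 20.2 and 34.0 CPM in Lepr-Cre mice, against 16.3, 13.8 and 21.97 CPM in KO/FL and 16.6, 18.8 and 12.01 CPM in FL/FL mice. Mouse B of the Lepr-Cre group lay within the KO/FL range. The log2 fold change of Uros was 0.87 (SE 0.27, edgeR adjusted p = 0.0550) against FL/FL mice, and it was 1.07 with an edgeR adjusted p of 0.0340 without Lepr-Cre mouse B. With all mice kept, Uros passed in edgeR without the filter on low counts (adjusted p = 0.0316), with replicate letters as a block (0.0171) and in 1 fit of 18 libraries (0.0124). DESeq2 called it too (adjusted p = 0.0342). It passed in 6 of 14 alternatives. Fech gave 0.34 (SE 0.13, edgeR adjusted p = 0.116) against FL/FL mice with groups apart. Urod (-0.06, SE 0.15, edgeR adjusted p = 0.882) and Ppox (0.12, SE 0.25, edgeR adjusted p = 0.858) overlapped between Lepr-Cre and FL/FL mice.

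**Figure D5:**
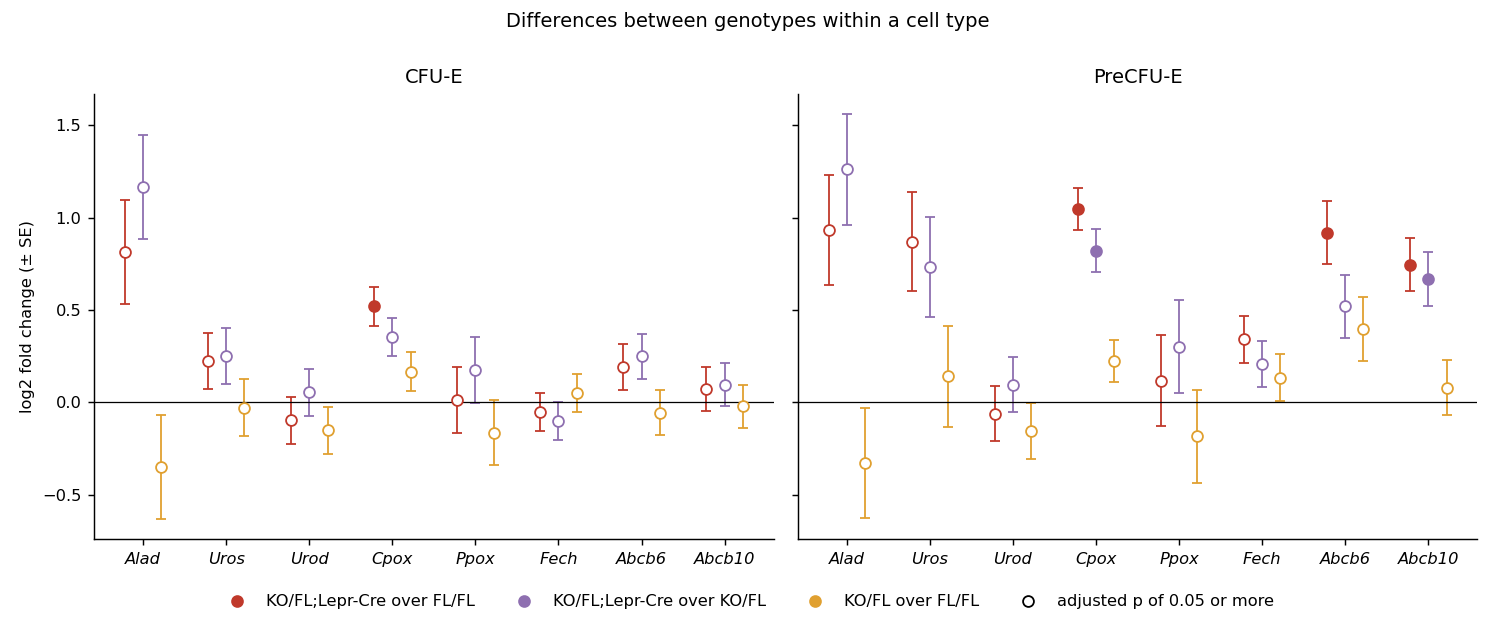
Log2 fold changes between genotypes (± SE from edgeR, 3 libraries per group) for 8 genes in CFU-E (left) and PreCFU-E (right), without Alas2, which was too low in PreCFU-E to be tested. Filled circles passed the threshold of 0.05 and open circles did not. Filled circles appear for Cpox, Abcb6 and Abcb10 in PreCFU-E and for Cpox in CFU-E, and the KO/FL over FL/FL values are all open.

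Other values that differed between the genotypes in PreCFU-E stand beside these. In PreCFU-E the same 5 early progenitor markers summed to 442 to 574 CPM in Lepr-Cre, 782 to 976 CPM in KO/FL and 937 to 1033 CPM in FL/FL mice. Kit had 380.0 to 489.5 CPM in Lepr-Cre, 648 to 824 CPM in KO/FL and 736 to 847 CPM in FL/FL mice. Gata2 had 47.7 to 71.2 CPM in Lepr-Cre, 126 to 144 CPM in KO/FL and 169 to 193 CPM in FL/FL mice. Erythroid progenitor markers, 10 of 10 detected, summed to 6011 to 6639 CPM in Lepr-Cre, 5592 to 5932 CPM in KO/FL and 5453 to 5852 CPM in FL/FL mice. The part of the makeup of the sorted cells in the members' differences was not tested. Library depth ran between 7281009 and 9325063 counts in PreCFU-E of Lepr-Cre mice, between 3541066 and 7197389 in KO/FL mice and between 6733640 and 9389122 in FL/FL mice. Without the shallowest library, PreCFU-E of KO/FL mouse A, 2 members were still called higher against KO/FL mice.

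A single Scf copy separates KO/FL from FL/FL mice. In PreCFU-E of these genotypes edgeR called 0 of 8 members and 0.0% of 10309 genes in either direction. DESeq2 called 0 members, beside 5 genes in all. An unadjusted edgeR p under 0.05 was found for 1 member (Abcb6), beside 3.4% of all genes. Groups overlapped for every member except Abcb6, beside 4.12% of genes that did not overlap and were higher in KO/FL mice. In CFU-E, edgeR called 0 of 9 members and 0.0% of 10192 genes between these genotypes. DESeq2 called 0 members, beside 1 gene in all. An unadjusted edgeR p under 0.05 was found for 0 members, beside 2.06% of all genes. Here 0 members were apart, beside 3.87% of all genes that were apart and higher in KO/FL mice.

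Within CFU-E, Cpox alone among the 9 members was called between Lepr-Cre and FL/FL mice, beside 2.08% of 10192 tested genes called higher. It had 1039, 1104 and 996 CPM in Lepr-Cre mice, against 681, 828 and 705 CPM in FL/FL mice, which did not overlap. The log2 fold change was 0.52 (SE 0.10, edgeR adjusted p = 0.00487). Against KO/FL mice, at 829, 819 and 826 CPM, it was 0.35 (SE 0.10, edgeR adjusted p = 0.120), again without overlap. Alad had 447, 588 and 576 CPM in Lepr-Cre mice, against 194, 195 and 334 CPM in KO/FL and 329.9, 382 and 215 CPM in FL/FL mice. Lepr-Cre mice were above all others for Alad, with 1.17 (SE 0.28, edgeR adjusted p = 0.142) against KO/FL and 0.81 (SE 0.28, edgeR adjusted p = 0.167) against FL/FL mice. Without KO/FL mouse C the value against KO/FL mice was 1.47 with an edgeR adjusted p of 0.00362. Alad and Cpox were the 2 members apart between Lepr-Cre and FL/FL mice, beside 10.3% of all genes apart and higher in Lepr-Cre mice.

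Between Lepr-Cre and KO/FL mice, edgeR called 0 of 9 members in CFU-E, beside 0.294% of all genes called higher. DESeq2 called 2 (Alad, adjusted p = 0.0140, and Cpox, adjusted p = 0.0211), among 229 genes in all. The same 2 had an unadjusted p under 0.05 in edgeR, beside 11.95% of all genes. In this contrast 4 members (Alad, Uros, Cpox and Abcb6) were apart and higher in Lepr-Cre mice, beside 8.12% of all genes. Alas2 had 4.37, 10.5 and 9.79 CPM in CFU-E of Lepr-Cre mice, against 4.74, 4.41 and 8.03 CPM in KO/FL and 2.52, 6.57 and 1.18 CPM in FL/FL mice. These groups overlapped, and the log2 fold change of 1.26 against FL/FL mice had an SE of 0.57 (edgeR adjusted p = 0.222). Abcb6 gave 0.19 (SE 0.12, edgeR adjusted p = 0.428) and Abcb10 0.07 (SE 0.12, edgeR adjusted p = 0.806) against FL/FL mice, with overlapping groups. Urod, Ppox and Fech lay between -0.10 and 0.01 in the same contrast. Without CFU-E of Lepr-Cre mouse B, the library with the fewest genes detected, 1 member was called against FL/FL and 0 against KO/FL mice. In CFU-E, the stroma markers summed to 2.24 to 4.96 CPM in Lepr-Cre, 0.113 to 1.24 CPM in KO/FL and 0 to 0.469 CPM in FL/FL mice, with 3 of 4 detected in each (Kitl at 0 in Lepr-Cre and FL/FL, Col1a1 in KO/FL mice). The B cell markers Cd79a and Ebf1 summed to 1.31 to 6.91 CPM in CFU-E of Lepr-Cre, 0.143 to 2.71 CPM in KO/FL and 0 to 2.34 CPM in FL/FL mice (Cd79a at 0 in FL/FL mice). The part of these stroma and B cell transcripts in the CFU-E differences was not tested.

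Whether the difference between genotypes itself differed between the cell types was tested as an interaction in the fit of 18 libraries. For Cpox the log2 step was lower by 0.54 in Lepr-Cre than in FL/FL mice (interaction -0.54, SE 0.15, edgeR adjusted p = 0.110), for Abcb6 it was -0.74 (SE 0.20, edgeR adjusted p = 0.107), and for Abcb10 -0.69 (SE 0.18, edgeR adjusted p = 0.0817). None passed the threshold, beside 0.354% of all genes. An unadjusted edgeR p under 0.05 was found for 5 members, beside 8.17% of all genes. DESeq2 called 2 members (Cpox and Abcb6), among 102 genes in all. Mice pair the cell types by design, and with the mouse as a block these 3 members did pass, with interactions of -0.53 (SE 0.11, edgeR adjusted p = 0.00239) for Cpox, -0.74 (SE 0.18, edgeR adjusted p = 0.0189) for Abcb6 and -0.70 (SE 0.15, edgeR adjusted p = 0.00307) for Abcb10. The background of that fit was 1.84% of all genes. Without CFU-E of Lepr-Cre mouse C, Abcb10 passed without a block too (-0.81, edgeR adjusted p = 0.0331).

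Against KO/FL mice, 0 members passed the interaction test without a block, beside 0.0% of all genes. Among the members, 4 had an unadjusted edgeR p under 0.05, beside 5.30% of all genes. These include Alas2, which had 0 counts in all PreCFU-E libraries of KO/FL mice. DESeq2 called 0 members, beside 23 genes in all. With the mouse as a block, Cpox (-0.48, SE 0.11, edgeR adjusted p = 0.0240) and Abcb10 (-0.59, SE 0.15, edgeR adjusted p = 0.0458) passed, beside 0.568% of all genes. Between KO/FL and FL/FL mice 0 members passed with or without the block, each beside 0.0% of all genes. DESeq2 called 0 members and 0 genes there. An unadjusted edgeR p under 0.05 was found for 2 members (Alas2 and Abcb6), beside 2.32% of all genes. In each of these called cases the 3 mice of the Lepr-Cre group had the smaller steps: for Abcb10 they were 0.76, 0.88 and 1.23 on the log2 scale, against 1.57, 1.55 and 1.52 in KO/FL and 1.64, 1.59 and 1.74 in FL/FL mice. For Cpox they were 0.44, 0.26 and 0.35 in Lepr-Cre mice, against 0.77, 0.75 and 0.95 in KO/FL and 0.74, 0.93 and 0.97 in FL/FL mice. No mouse of the Lepr-Cre group overlapped the others in either gene.

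Other genes of the pathway were read from a list of 34 that the table holds. In the step, 7 of 34 were called higher and 0 lower in Lepr-Cre mice, 13 higher and 1 lower in KO/FL mice, and 15 higher and 1 lower in FL/FL mice. Of all tested genes, 3.0%, 6.89% and 8.99% were called higher and 4.25%, 7.18% and 9.3% lower in Lepr-Cre, KO/FL and FL/FL mice. The medians of the 34 were 0.18, 0.22 and 0.16, below those of the 9 members. Called higher in all 3 genotypes were Slc25a38, which carries glycine into mitochondria for ALAS, Tfrc, the transferrin receptor, Slc25a37, the mitochondrial iron importer mitoferrin 1, Tmem14c, a porphyrin carrier of the inner membrane, Hebp1, a haem-binding protein, Blvrb, a biliverdin reductase, and Eif2ak1, the haem-regulated kinase of translation. Slc25a38 had 90.6, 124 and 118 CPM in CFU-E of Lepr-Cre mice, against 47.9, 53.8 and 62.3 CPM in PreCFU-E, and its log2 fold change was 1.02 in Lepr-Cre, 1.36 in KO/FL and 1.39 in FL/FL mice (edgeR adjusted p = 0.000683, 7.58e-06 and 3.36e-06). Hebp1 changed most, by 1.24, 1.77 and 2.14 in the same order (edgeR adjusted p = 2.20e-05, 2.91e-08 and 5.87e-10). The gene called lower in KO/FL and FL/FL mice was Nfe2, a subunit of the factor NF-E2, at -0.78 and -0.86 (edgeR adjusted p = 0.00257 and 0.000692).

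Read against those shares, the lists by role are short, and 1 called gene in a list of 4 to 6 marks no role. Of these lists, 1 of 6 genes of entry and substrate supply was called higher in each genotype, and 2, 4 and 5 of 6 genes of iron supply in Lepr-Cre, KO/FL and FL/FL mice. For movement of porphyrin and haem these counts were 2, 4 and 4 of 5, and for assembly of iron-sulphur clusters, which ferrochelatase carries, they were 0, 1 and 1 of 5. Haem breakdown gave 1, 1 and 2 of 4, and haem and iron sensing 1 of 4 in each genotype. Of 4 erythroid factors (Gata1, Klf1, Tal1 and Nfe2), 0 were called higher in Lepr-Cre mice and 1, Klf1, in KO/FL (0.33, edgeR adjusted p = 0.0183) and FL/FL mice (0.35, edgeR adjusted p = 0.00894).

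In PreCFU-E, 4 of the 34 were higher and 2 lower in Lepr-Cre than in FL/FL mice, beside 2.89% of all tested genes called higher and 3.24% called lower. Tfrc (0.69, edgeR adjusted p = 0.00625), Tmem14c (0.64, 0.00739), Glrx5 (0.50, 0.0153), a glutaredoxin of iron-sulphur cluster assembly, and Tal1 (0.48, 0.00838), a partner of GATA1, were higher. Aco1 (-0.55, 0.0198), the cytosolic aconitase that also binds iron-responsive elements, and Nfe2 (-0.84, 0.00192) were lower. Tmem14c had 146, 174 and 182 CPM in Lepr-Cre mice, against 115, 99.1 and 145.5 CPM in KO/FL and 111, 91.8 and 121 CPM in FL/FL mice, so its Lepr-Cre libraries lay above the rest. Against KO/FL mice 1 of 34 was called, Glrx5 (0.48, edgeR adjusted p = 0.0370, beside 1.02% of all genes called higher), with 157, 176 and 214 CPM in Lepr-Cre mice and 122, 122 and 146 CPM in KO/FL mice. In CFU-E 0 of 34 were called in any of the 3 contrasts between genotypes. Of 10192 tested genes, 492 were called for Lepr-Cre against FL/FL mice (2.08% of all higher) and 103 against KO/FL mice (0.294% higher). For KO/FL against FL/FL mice 0 were called. At such shares, 0 of 34 does not set these genes apart.

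Genes with the most similar profiles over the 6 group means of log2(CPM + 0.5), each centred on its own mean, are given as a description, with the root mean square difference in log2 units. For Uros the nearest were Rps6ka1 (0.05), Hemgn (0.10) and Gpr155 (0.12), and for Abcb10 RP23-296J10.4 (0.08), Gpr155 (0.08) and Hemgn (0.08). For Cpox they were Reep6 (0.07), Mier3 (0.10) and RP23-124N11.3 (0.11), for Abcb6 Paqr9, Tspan33 and Tfrc (0.08 each), and for Alas2 Dusp8 (0.35), Hbb-bs (0.36), an adult beta globin, and Btg2 (0.45). In PreCFU-E, Alas2 was at 0 in KO/FL mice and Hbb-bs at 0 in KO/FL and FL/FL mice. That part of their likeness lies at the floor of the counts. Alad was nearest to Hipk2 (0.13), Hspa1a (0.17) and Zfp78 (0.20). Among the members Uros and Abcb10 were nearest to each other (0.15), while for Urod the nearest member, Fech (0.18), came after 736 other genes.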

How the data were processed

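Libraries were made from total RNA with a stranded low-input kit (SMARTer), per the labels' protocols. The submitters' processing notes name STAR 2.5.2b, HTSeq and the build mm10. The authors deposited whole-number read counts and RPKM values for 21967 genes in 18 libraries, and 5325 of these genes had no count. In the deposited RPKM values the length divisor of a gene was often another gene's span, so RPKM was used only within genes.

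Counts were tested with edgeR 4.0.16 (robust quasi-likelihood, TMM, genes kept by filterByExpr with a minimum count of 10 and total of 15) in R 4.3.3, two-sided, at a Benjamini-Hochberg adjusted p of 0.05 over all tested genes, after a run on simulated data. Steps and interactions used 1 fit of 18 libraries, and genotypes were compared in the 9 libraries of a cell type. Both cell types of a mouse pair by design (correlation of their deviations 0.0705 to 0.1776), so the mouse block stands beside results it changes. Fold changes are log2. Replicates differed by 7.93 to 19.8 times counting noise (chi-square per degree of freedom), so none was a repeat of another. The alternatives were other size factors, no filter, DESeq2 1.42.0, limma 3.58.1 on log2(RPKM + 1) and log2(RPKM + 0.1), male mice alone, replicate blocks, fits of other sets of libraries, and each library left out in turn. All 9 members are named throughout, the other genes where they passed a test or lead by likeness. The members and lists were chosen with earlier results of these data known. Levels between genes use merged GENCODE M21 exon lengths. A gene each of the early progenitor and B cell marker lists is not reported here, and their sums leave it out.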

Additional observations from a re-analysis of the deposited data

Results flagged for a closer look

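For 3 genes the step between the cell types differed between Lepr-Cre and FL/FL mice in a test of the difference itself, with the mouse as a block in edgeR. The interaction was -0.53 on the log2 scale for Cpox (adjusted p = 0.00239), -0.74 for Abcb6 (adjusted p = 0.0189) and -0.70 for Abcb10 (adjusted p = 0.00307), so the step was smaller in Lepr-Cre mice. For 2 of them it also differed between Lepr-Cre and KO/FL mice in the same edgeR fit, by -0.48 for Cpox (adjusted p = 0.0240) and -0.59 for Abcb10 (adjusted p = 0.0458). Without the block, the main edgeR fit called 0 members in either interaction, beside 0.354% of all genes against FL/FL and 0.0% against KO/FL mice. Against FL/FL mice, Abcb10 passed without the block when low counts were not filtered (edgeR adjusted p = 0.0336) or CFU-E of Lepr-Cre mouse C was left out (0.0331). DESeq2, also without a block, called Cpox and Abcb6 there. For Abcb6 the log2 steps of mice A, B and C were 0.63, 0.90 and 0.62 in the Lepr-Cre group, against 1.48, 1.29 and 1.60 in the FL/FL group.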

How the results depend on the processing

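Of the members' fold changes under all alternatives, 1535 kept their side of the threshold, 41 lost the call and 28 gained it. Where a value passed in either fit, 0 changed direction. Values that passed in neither fit count as kept even where their sign changed. Urod did so for Lepr-Cre against FL/FL mice in PreCFU-E, with -0.06 in the main fit and -0.15 to 0.07 in the alternatives. Counts of members called moved by over 1.5 times as follows. For the step in Lepr-Cre mice, male mice alone gave 3, against 8, while the calls over all genes went from 778 to 305. For Lepr-Cre against FL/FL mice in PreCFU-E, DESeq2 gave 5 and the replicate block by letter 5, against 3. For Lepr-Cre against KO/FL mice in PreCFU-E, limma gave 1 with either pseudocount (+ 1 or + 0.1) and male mice alone 1, against 2, and leaving out each library gave 1 to 3. For Lepr-Cre against FL/FL mice in CFU-E, limma on log2(RPKM + 0.1) and male mice alone gave 0, against 1. For Lepr-Cre against KO/FL mice in CFU-E, DESeq2 gave 2 and the replicate block by letter 1, against 0, and leaving out each library 0 to 1. For the interaction with Lepr-Cre against FL/FL, no filter gave 1, DESeq2 2, the mouse block 3 and leaving out each library 0 to 1, against 0, and with Lepr-Cre against KO/FL the mouse block gave 2, against 0. The causes were not tested.

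Letters A, B and C across genotypes do not mark a shared litter or day in the labels, though mice B were female in every genotype. In no pair of groups did all 3 same-letter correlations exceed 0.1 (they ran between 0.0492 and 0.1544). Libraries of the same mouse correlated in much the same range (0.0705 to 0.1776), so these values cannot tell a pairing from none. Counts over all genes also depended on the setting: 305 to 1322 were called for the Lepr-Cre step (against 778), 800 to 2152 for the KO/FL step (1510) and 889 to 2706 for the FL/FL step (1963). In PreCFU-E they ran from 193 to 1586 for Lepr-Cre against FL/FL (632) and from 34 to 840 against KO/FL (225), and in CFU-E from 122 to 933 (492) and from 8 to 280 (103). The order of genes per kilobase was also tried with transcript lengths, an alternative chosen after seeing the data. Low counts limit Alas2, which had 70 counts at most in a library.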

Other observations

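In the deposited RPKM values, each of the 16642 genes with counts was divided by a single length in every library (relative tolerance 1e-06), which allows the length to be read back. Of 15400 genes matched to GENCODE M21, the length equalled the gene's own span for 473 (3.07%) and its own exon length for 23. For Alas2 and Alad it was their own span, 23264 and 10750 bases. For Cpox it was 105725 bases, against an own span of 47345, and equalled the span of Cpped1. Urod was divided by 120526 bases, the span of Usp13, against an own span of 4449, and Ppox by 23305 bases, the span of Ppp1r16a, against 5197. Abcb10 was divided by 1341 bases, against 4306 bases of exon. Fold changes within a gene do not depend on this length except through the pseudocount, whereas RPKM levels of different genes cannot be set side by side.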
